A study of Mus musculus with 96 samples.

Results

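The response of mouse dendritic cells to 5 Toll-like receptor ligands was followed in 4 growth factor transcripts: Ereg (epiregulin), Inhba (the beta A subunit of activin), Hbegf (heparin-binding EGF-like growth factor) and Vegfa (vascular endothelial growth factor A). They were chosen from earlier results on these same arrays, with their intensities by ligand and time already known, so their levels and differences are given as a description without p-values. Of the 5 genes named for the group, 4 were analysed, with 6 probe sets between them, among 7741 named genes measured, and Areg is not analysed here. Ereg and Inhba have 1 probe set each, and Hbegf and Vegfa have 2 each, of which the brighter is used unless the other is named.

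The study exposed primary dendritic cells, grown from mouse bone marrow, to 5 ligands and sampled them at 9 times, the first at 0.5 h and the last at 24 h. The ligands are labelled Lps (lipopolysaccharide, sensed by TLR4), Pic (poly(I:C), a double-stranded RNA mimic sensed by TLR3 and cytosolic sensors), Pam (a synthetic lipopeptide sensed by TLR2), Cpg (CpG DNA sensed by TLR9) and Grd (gardiquimod, sensed by TLR7), with the expansions given from general knowledge of these reagents. Unstimulated cells, labelled Control, were sampled once each at 0, 1, 2, 4, 6, 8, 12 and 24 h. Each ligand and time has 2 arrays, except Cpg at 16 and 24 h with 1 each. There are 16 Cpg arrays and 18 of every other ligand, and 8 arrays are Control. Strain, age and sex of the animals are not given in the sources used here, and the labels leave unstated if duplicate arrays stem from different cultures. Every standard error and p-value measures the spread between these arrays, which may be technical. In the fit over all arrays the 8 Control arrays share 1 mean, so changes between their times count as spread.

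The values are Affymetrix intensities on a linear scale with a floor of 20, and a probe set at 20 was at or below what the deposited table reports. Between 33.1% and 34.6% of probe sets lay at the floor on an array, and the number of arrays limits the precision. The dendritic cell label was checked on 9 measured marker genes, none of them at the floor on all arrays. The MHC class II genes H2-Aa, H2-Ab1, H2-Eb1 and Cd74 had Control medians of 5034, 5716, 4655 and 7931, and Itgax (CD11c) had 3702, while Flt3 and Zbtb46 had 28.15 and 42.3. All 7 macrophage markers were also present, with a Control median of 2257 for Csf1r, and the neutrophil genes S100a8 and S100a9 had Control medians of 2383 and 3118. Of the other neutrophil and myeloid precursor markers, Ngp had 1030, Ltf 265.4 and Camp 104.5. Elane, Mpo and Prtn3 lay near the floor, at 31.05, 24.15 and 20.85. Kit, Mcpt8, Hdc and Cd79b were at the floor in every Control array, while Gata2, listed with the mast cell and basophil markers, read 26.0 to 32.5 there. Hdc, of the same list, reached 378.1 with Lps, 112.7 with Cpg and at most 69.2 with the other ligands. Of the fibroblast and stroma markers, Acta2 had a Control median of 118.85. Dcn, at most 29.0 in Control, reached 264.0 with Grd. These markers did not stay at their Control levels on all ligand arrays. The summed level of the 8 measured neutrophil and myeloid precursor markers ranged from 1227 to 9749 with Lps, 3937 to 11382 with Pic, 2304.5 to 8966 with Pam, 1618 to 9021 with Cpg and 2197 to 8616 with Grd, against 5195 to 8212 in Control. That of the 7 macrophage markers ranged from 16964 to 29194 over all ligand arrays, against 17147 to 22985 in Control, and within it Adgre1 reached 6822 with Grd, against a highest Control value of 1666, while Mrc1 was at the floor on at least 1 Lps array, against at least 1196 in Control. The part of these marker levels in the members' values was not tested. In bulk RNA a smaller number of expressing cells and less RNA per cell cannot be told apart, which holds for every value below.

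Epiregulin and heparin-binding EGF-like growth factor belong to the EGF family. Both are made as membrane-anchored precursors, are released by metalloproteases such as ADAM17, and activate the EGF receptor and its relative ErbB4. Activin A is a homodimer of the Inhba product and a member of the TGF-beta superfamily that signals through type II and type I receptor kinases to Smad2 and Smad3, and follistatin (Fst) binds and neutralises it. Vascular endothelial growth factor A acts on the receptors Flt1 and Kdr, and its transcription is classically driven by hypoxia-inducible factors.

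The promoter windows of 2 members, from RefSeq on build GRCm38.p6, are shown because Inhba had the largest differences of the group and Vegfa the opposite direction. Each window runs from 250 bases before the annotated start to the first 50 bases of the transcript, and capitals mark motif matches found on either strand. The Inhba window lies at chr13:16011601-16011900 on the plus strand, and that of the first Vegfa start at chr17:46032328-46032627 on the minus strand.
Inhba: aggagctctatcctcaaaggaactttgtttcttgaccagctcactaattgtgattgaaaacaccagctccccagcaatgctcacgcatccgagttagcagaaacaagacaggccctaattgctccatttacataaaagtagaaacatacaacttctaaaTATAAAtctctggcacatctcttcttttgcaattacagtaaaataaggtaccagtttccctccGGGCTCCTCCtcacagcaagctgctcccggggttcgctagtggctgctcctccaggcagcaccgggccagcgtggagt
Vegfa: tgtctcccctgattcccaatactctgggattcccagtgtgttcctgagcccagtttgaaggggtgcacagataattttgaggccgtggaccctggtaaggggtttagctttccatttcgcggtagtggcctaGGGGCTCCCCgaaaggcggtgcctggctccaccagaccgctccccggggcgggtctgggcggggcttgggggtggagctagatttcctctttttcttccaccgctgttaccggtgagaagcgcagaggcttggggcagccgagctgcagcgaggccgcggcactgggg
The loose NF-kB consensus (3 G, 5 free bases and 2 C) and 4 shorter motifs were searched on both strands. With the start site as position 0, the Inhba window holds TATAAA at -91 to -86 and a match to that NF-kB consensus at -28 to -19, and the Vegfa window holds 1 NF-kB match, at -118 to -109. Neither window holds the AP-1 motif (letters TGANTCA), the cyclic AMP response element (letters TGACGTCA) or the hypoxia element core (letters ACGTG), which the window of the second annotated Vegfa start holds at -211 to -207. Of the 32851 RefSeq promoter windows of the same length, 50.8% hold the NF-kB consensus, 13.6% the TATA box, 19.6% the hypoxia element core, 7.8% the AP-1 motif and 1.8% the cyclic AMP response element. A match to the NF-kB consensus is thus common among promoters, and none of these matches was tested as a binding site.

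Epiregulin was not detected in unstimulated cells and differed between ligands both in level and in timing. All 8 Control arrays were at the floor of 20, and so were all 10 ligand arrays at 0.5 h. With Lps the 2 arrays read 46.1 and 51.8 at 1 h, 238.9 and 267.4 at 2 h, and 104.4 and 127.0 at 4 h. The 2 h mean of 253 with Lps was at least 12.7-fold above Control. Lps arrays then declined to 73.7 and 47.7 at 12 h, were both at the floor at 16 h and read 30.3 and 26.4 at 24 h.

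With Cpg the higher levels of Ereg were briefer. The Cpg arrays read 79.0 and 128.1 at 1 h and 110.0 and 101.0 at 2 h, then 36.4 and 38.0 at 4 h, and from 6 h on none exceeded 28.1. With Pam the transcript was present from 1 h on, and with Grd mainly from 4 h on, and with both it was still present at 24 h. With Pam the arrays read 75.7 and 56.8 at 1 h, 253.6 and 225.5 at 8 h, 220.1 and 183.0 at 12 h, and still 111.1 and 126.5 at 24 h. With Grd, Ereg was barely above the floor at 1 h, at 22.3 and 22.5, read 141.2 and 168.3 at 4 h, and was 100.7 and 129.1 at 24 h. With Pic, Ereg stayed close to the floor, its highest array reading 28.2 at 8 h.

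These time courses were summarised in 3 windows: early (0.5, 1 and 2 h), middle (4, 6 and 8 h) and late (12, 16 and 24 h). Differences are on the log2(intensity + 1) scale, from 1 fit over all arrays, against the mean of the 8 Control arrays that all ligands share. For Ereg they were 1.61, 2.18 and 0.67 with Lps in the early, middle and late window, and 1.54, 0.49 and 0.09 with Cpg. With Pam they were 1.18, 2.77 and 2.72, and with Grd 0.33, 2.81 and 2.11, while the 3 Pic values lay between 0.00 and 0.14. The standard error is 0.135 for each, except 0.158 for Cpg in the late window. Since every Control array was at the floor, the size of these differences depends on the floor.

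The 5 ligands form 10 pairs in each of 3 windows, 30 comparisons for each member, given without p-values because the members were picked with these differences known. Pam exceeded Cpg in Ereg by 2.28 ± 0.144 (SE) in the middle window and by 2.63 ± 0.166 in the late one, while in the early window the difference was -0.36 ± 0.144. Lps and Cpg, close together early at a difference of 0.08 ± 0.144, were 1.70 ± 0.144 apart in the middle window. Pam and Grd were 0.86 ± 0.144 apart early and -0.04 ± 0.144 apart in the middle window. The duplicate arrays mostly lay close, with a median gap of 0.18 on the log2 scale over 43 pairs, but the 2 Pam arrays at 2 h, 125.2 and 46.1, were 1.42 apart, and without the higher of those 2 arrays the early Pam difference is 0.94.

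**Figure D1:**
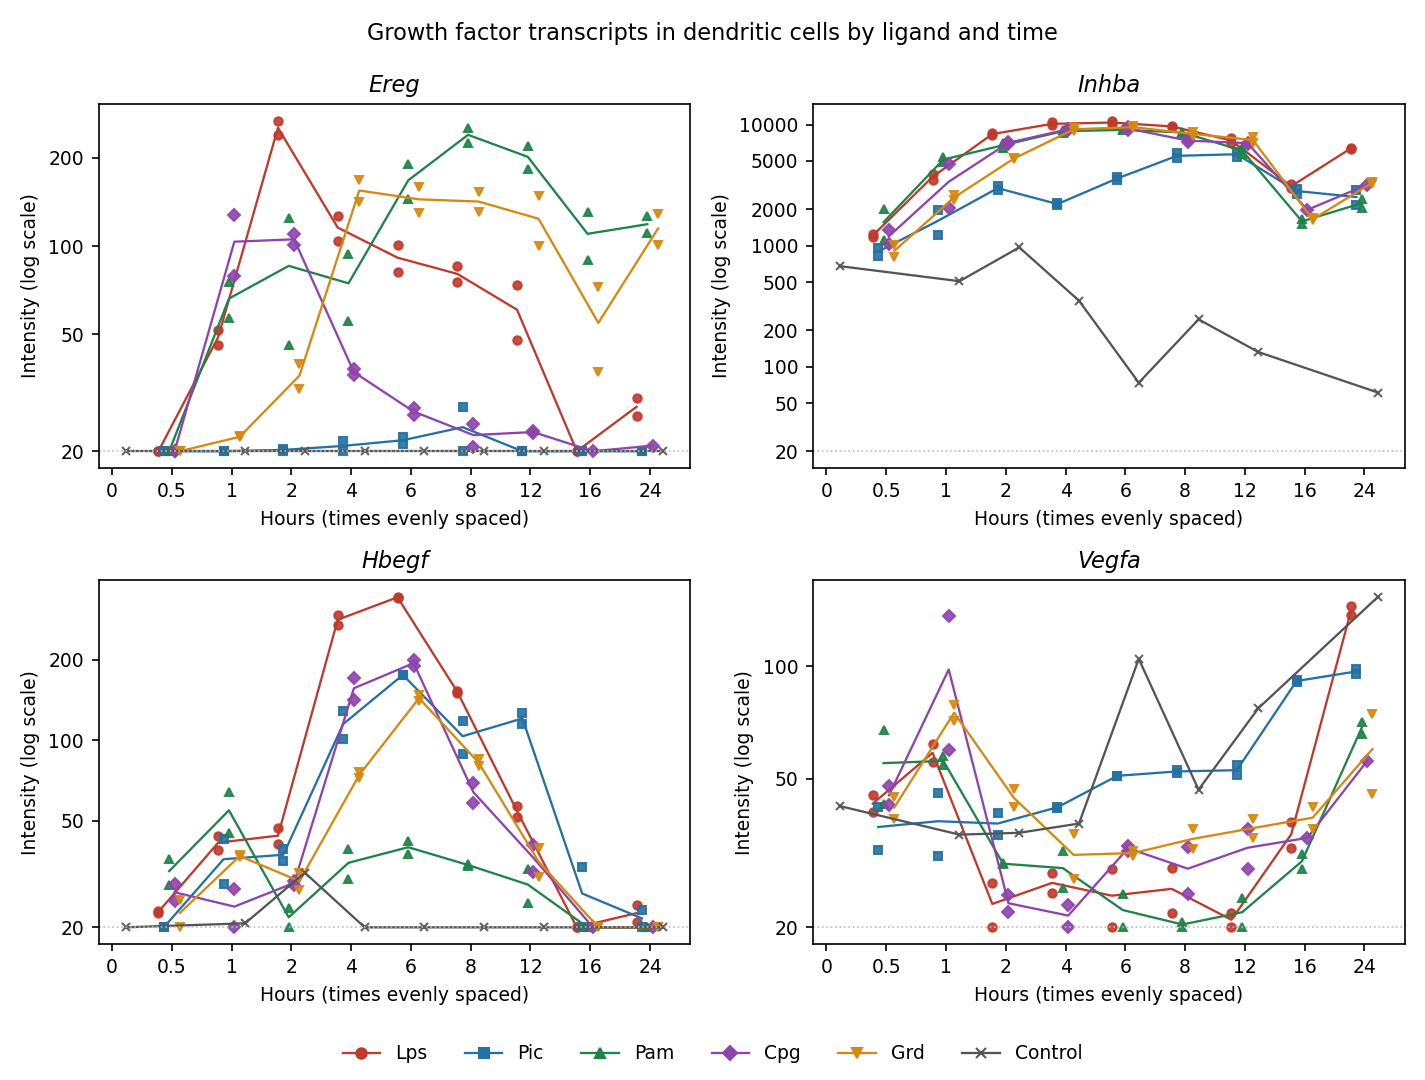
Intensity of each member (log scale) at each sampled time (evenly spaced, in hours), with a point for each array, lines through the group means, colours for the 5 ligands and grey crosses for Control, and a dotted line at the floor of 20. Ereg peaks at 2 h with Lps (253) and at 8 h with Pam (mean 239.55), Inhba reads at least 2174.9 in the middle window with every ligand, Hbegf peaks at 6 h with all ligands but Pam, and Vegfa is lowest with Lps, Pam and Cpg.

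Hbegf, although of the same EGF family, ranked the ligands differently. It was at the floor in 6 of 8 Control arrays, the others reading 20.7 at 1 h and 32.0 at 2 h. With Lps it read 270.0 and 294.9 at 4 h, 343.6 and 341.5 at 6 h and 153.4 and 150.6 at 8 h. With Pic, the ligand that left Ereg near the floor, Hbegf read 100.9 and 129.0 at 4 h, 175.4 and 175.9 at 6 h, and remained at 126.6 and 114.9 at 12 h. With Cpg the 6 h mean was 194.3 and with Grd 143.8. With Pam, the ligand with the most lasting Ereg, the middle window arrays lay between 30.4 and 42.2, and the highest Hbegf mean was 54.75 at 1 h.

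In the middle window Hbegf differed from Control by 3.46 under Lps, by 2.52 under Pic, by 2.49 under Cpg, by 2.12 under Grd and by 0.73 under Pam, each with a standard error of 0.101. Pic exceeded Pam by 1.79 ± 0.108 in Hbegf in that window, where for Ereg the same pair differed by -2.63 ± 0.144. Pic and Cpg, at a difference of 0.03 ± 0.108, were not separated. The second, dimmer Hbegf probe set gave middle differences of 2.11, 1.04, 1.04, 0.83 and 0.20 for Lps, Pic, Cpg, Grd and Pam, smaller throughout and in the same order. By 16 h every Hbegf array with Lps, Pam, Cpg and Grd was at the floor, and the 2 Pic arrays read 20 and 33.5.

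**Figure D2:**
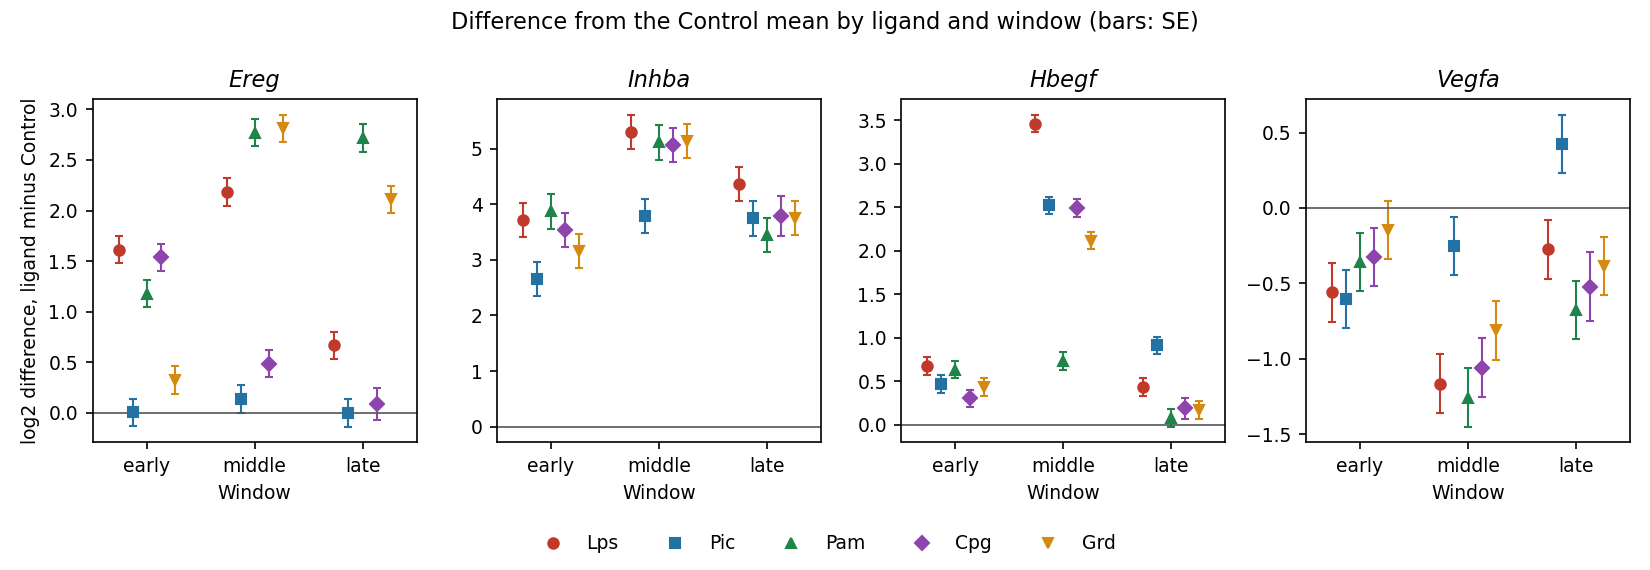
Differences from the Control mean (log2 scale, vertical axes that differ between genes) by window, with a point for each ligand and bars of 1 standard error. Pic sits between 0.00 and 0.14 for Ereg in all windows and at 2.52 for Hbegf in the middle window, Pam sits at 2.77 for Ereg and 0.73 for Hbegf there, and all ligands lie between 2.66 and 5.30 for Inhba.

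Inhba was higher with all 5 ligands than in Control in every window. It spanned 5.35 log2 units over the 46 group means (45 ligand and time groups and the Control mean), which ranks 48 among 10543 features. At 0.5 h the arrays already read 1253.8 and 1170.1 with Lps, 820 and 963.9 with Pic, 2001.0 and 1121.3 with Pam, 1355.9 and 1033.0 with Cpg, and 1004.1 and 803.8 with Grd. The Control arrays read 676.2 at 0 h, 507.8 at 1 h and 965.7 at 2 h. Both Pic arrays and 1 Grd array at 0.5 h lay below that 2 h Control value. At 6 h the ligand arrays read 10735.5 and 10048.1 with Lps, 8932.6 and 9127.8 with Pam, 9470.0 and 9074.2 with Cpg, and 9345.8 and 9674.7 with Grd. Pic stood apart, with 3659.8 and 3512.5 at 6 h and its highest values, 5923.7 and 5443.3, at 12 h. In the middle window the pairwise log2 differences among the other 4 ligands were no larger than 0.23 in size (SE 0.329).

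The window differences for Inhba were 3.71, 5.30 and 4.37 with Lps, 2.66, 3.79 and 3.75 with Pic, 3.87, 5.11 and 3.45 with Pam, 3.54, 5.07 and 3.79 with Cpg and 3.16, 5.14 and 3.75 with Grd, each with a standard error of 0.308, or 0.362 for Cpg late. In the middle window Lps exceeded Pic by 1.52 ± 0.329, and Pam exceeded Cpg by 0.04 ± 0.329. These standard errors include the spread of the 8 Inhba Control arrays, from 61.1 to 965.7, although a difference between ligands uses no Control level. The median gap between duplicate ligand arrays was 0.10 on the log2 scale, with the widest, 1.20, between the Cpg arrays at 1 h, 2044.6 and 4692.2.

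The Inhba level was lower at 16 h than at 12 h with all 5 ligands. The 16 h arrays read 2983.1 and 3198.7 with Lps, 2693.5 and 2956.9 with Pic, 1511.0 and 1661.8 with Pam, 1974.4 with Cpg, and 1676.1 and 1621.2 with Grd, against 12 h means of 7377, 5683.5, 6091, 7018 and 7450.15 in that order of ligands. At 24 h it was higher than at 16 h with Lps, at 6409.5 and 6325.0, with Pam, at 2420.8 and 2055.8, with Cpg, at 3178.8, and with Grd, at 3369.6 and 3247.9. The Pic arrays at 24 h, at 2870.5 and 2167.0, overlapped those at 16 h. Ereg with Grd had the same shape, with 72.3 and 37.2 at 16 h between means of 123.95 at 12 h and 114.9 at 24 h. Arrays of 1 time lie in 1 column of the array plate for Lps, Pic, Pam and Grd, so plate column and time cannot be told apart for those ligands, while the 16 h Cpg array lies in another column. The median over all features of the 16 h minus 12 h difference lay between 0 and 0.011 for the 5 ligands.

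**Figure D3:**
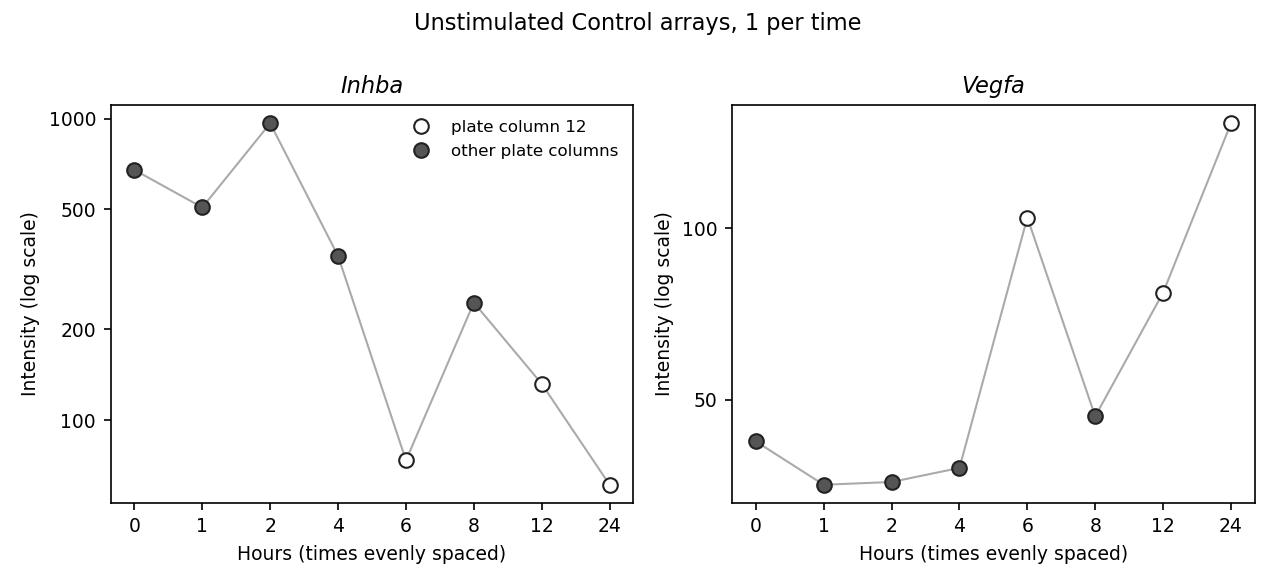
Inhba and Vegfa intensity (log scale) in the 8 unstimulated Control arrays by time (evenly spaced, in hours), with open circles for the 3 arrays in plate column 12. Inhba is lowest and Vegfa highest in those 3 arrays, taken at 6, 12 and 24 h.

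The baseline against which Inhba and Vegfa are set was itself not flat. In Control, Inhba read 676.2, 507.8, 965.7, 350.6, 73.6, 245.5, 132.0 and 61.1 at 0, 1, 2, 4, 6, 8, 12 and 24 h, and Vegfa read 42.2, 35.4, 35.8, 37.9, 104.5, 46.7, 77.1 and 153.1. A linear trend on log2(hours + 1) had a slope of -0.82 ± 0.207 (SE) for Inhba and 0.40 ± 0.131 for Vegfa, given as a description. Ereg had a slope of 0 and Hbegf of -0.04 ± 0.057. The Control arrays at 6, 12 and 24 h all lie in plate column 12, and at 8 h, outside that column, both genes were nearer their 4 h values than they had been at 6 h. What part plate position had in this was not tested.

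Against Control arrays of the same times, the Inhba differences become smaller early and larger late. They were 2.98, 1.62, 3.07, 2.74 and 2.37 early with Lps, Pic, Pam, Cpg and Grd, and 6.24, 5.37, 5.34, 5.70 and 5.77 late. Ligand arrays of times without a Control array, the first sampled time and 16 h, were left out here. The changes thus mix the choice of Control arrays with that of ligand times. The Control arrays behind the late values, at 12 and 24 h, both lie in plate column 12. With the 3 Control arrays of that column left out, late differences were 3.416, 2.797, 2.499, 2.844 and 2.804 in the same order of ligands. These were smaller with every ligand than those against all Control arrays, so the late size depends on the choice of Control arrays. Every ligand array exceeded the Control array of its own time where one exists: at 24 h the lowest ligand array read 2055.8, with Pam, against 61.1 in Control.

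Vegfa was lower in stimulated than in Control cells in the middle window, with Lps, Pam, Cpg and Grd. In the middle window the arrays lay between 20 and 28.9 for Lps, 20 and 32.1 for Pam, 20 and 33.0 for Cpg, 26.9 and 36.6 for Grd, and 41.8 and 52.7 for Pic, against 37.9, 104.5 and 46.7 in Control at 4, 6 and 8 h. With Lps, Pam, Cpg and Grd, no array of that window reached the lowest of these Control values, whereas the Pic arrays overlapped them. Before that, at 1 h, Vegfa had read 55.4 and 61.8 with Lps, 57.3 and 54.2 with Pam, 136.2 and 59.6 with Cpg and 78.6 and 71.4 with Grd, all above the 35.4 of the Control array of that time, while the Pic arrays read 31.1 and 45.8. Between 1 h and 2 h the level dropped by 1.32 ± 0.358 (SE) on the log2 scale with Lps and dropped by 1.92 ± 0.358 with Cpg, where the 2 Cpg arrays at 1 h differed by 1.18. That standard error includes the spread of the Vegfa Control arrays, from 35.4 to 153.1.

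The middle Vegfa differences from the mean of all Control arrays were -1.16 for Lps, -1.26 for Pam, -1.06 for Cpg, -0.81 for Grd and -0.25 for Pic (SE 0.193). With the 3 Control arrays of plate column 12 left out they were -0.63, -0.72, -0.52, -0.28 and 0.28, so the direction held with 4 ligands and turned with Pic, and no difference from Control was then as large as 1 in size. Late differences changed sign with this choice for 3 ligands, being -0.28, -0.52 and -0.38 with Lps, Cpg and Grd against all Control arrays and 0.26, 0.01 and 0.15 without those 3. The Control arrays then left were taken at 8 h or before. Against Control arrays of the same times, without 16 h, late differences were -0.98, -0.60, -1.46, -1.33 and -1.21 with Lps, Pic, Pam, Cpg and Grd. At 24 h the Lps arrays, at 144.4 and 136.7, had nearly reached the Control value of 153.1, and the Pam arrays, at 65.8 and 71.0, had not. The second Vegfa probe set was flatter, with middle differences of -0.06, -0.37, 0.04, -0.03 and 0.32 for Lps, Pam, Cpg, Grd and Pic (SE 0.134), so the 2 probe sets disagree in this window except with Pam.

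Counted over the 45 ligand and time groups, every array lay above all 8 Control arrays in 43 groups for Inhba, 32 for Ereg, 22 for Hbegf and 0 for Vegfa, where 15.5% of all feature and group pairs did so. Every array lay below all 8 in 17 groups for Vegfa, 6 with Pam, 5 each with Lps and Cpg, 1 with Grd and 0 with Pic, where 23.5% of all pairs did. The members were picked on these contrasts, so the counts only describe them and nothing is read from their distance to these shares.

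By the rule used below for pathway genes, an adjusted p under 0.05 and a log2 difference of at least 1, the early window had 2 members past it with Lps, 1 with Pic, 2 with Pam, 2 with Cpg and 1 with Grd. The shares of all 10543 features past it in those comparisons were 2.12%, 0.863%, 2.39%, 2.14% and 1.12%. For the middle window 4, 2, 3, 3 and 3 members were past it, where the shares of all features were 15.3%, 7.72%, 7.48%, 10.9% and 8.45%. The counts for Lps, Pam and Cpg include Vegfa as lower, and without the 3 Control arrays of plate column 12 Vegfa was no longer past the rule, leaving 3, 2 and 2 members. In the late window the members numbered 1, 1, 2, 1 and 2, and the shares were 9.12%, 8.54%, 6.39%, 7.09% and 6.72%. These member counts describe values that chose the members and are no test of them.

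The members did not share 1 profile. Over the 46 group means, which share arrays, plate and Control, Pearson's r was 0.56 between Inhba and Hbegf, 0.55 between Ereg and Inhba and 0.13 between Ereg and Hbegf, and Vegfa had r between -0.46 and -0.35 with the other 3. The named genes most like each member were sought among 1165 whose group means span at least 2 log2 units. For Ereg they were Trem1, a receptor that amplifies myeloid inflammation, at r = 0.81, Rdh11, a retinol dehydrogenase, at 0.77, and Slc39a14, a zinc and iron importer, at 0.76. For Inhba they were Cflar, an inhibitor of caspase-8, at 0.92, Ptx3, a secreted pattern recognition protein, at 0.92, and Schip1 at 0.91. For Hbegf they were Usp12, a deubiquitinase, at 0.94, Atp10a, a phospholipid flippase, at 0.91, and Rcn1, a calcium-binding protein, at 0.89. Vegfa had the weakest likenesses, to Gpr65, a proton-sensing receptor, at 0.79, Dnajc12 at 0.77 and Bcl2l14 at 0.77.

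The other genes of these pathways were taken from 8 lists with 72 measured genes between them, and each was tested in the 15 ligand windows against the same 8 Control arrays by limma with Benjamini-Hochberg adjustment over 10543 features. In the early window 5 of the 72 passed with Lps, 1 with Pic, 4 with Pam, 3 with Cpg and 2 with Grd. These were 6.94%, 1.39%, 5.56%, 4.17% and 2.78% of the 72, against 2.12%, 0.863%, 2.39%, 2.14% and 1.12% of all features. At the middle times 12, 8, 8, 10 and 8 passed, and in the late window 7, 7, 5, 7 and 7. The middle shares were 16.7%, 11.1%, 11.1%, 13.9% and 11.1% of the 72, against 15.3%, 7.72%, 7.48%, 10.9% and 8.45% of all features. The late shares were 9.72%, 9.72%, 6.94%, 9.72% and 9.72%, against 9.12%, 8.54%, 6.39%, 7.09% and 6.72%. The median log2 difference of the 72 lay between 0 and 0.011 in all 15 windows, and that of all features between -0.108 and -0.005. The lists were chosen with earlier results known, so these shares are no test of them. The same shares of all features stand beside the counts of single lists below, which are small.

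Follistatin, the secreted antagonist of activin, rose with all 5 ligands in the early and middle windows. Fst averaged 39.6 ± 27.3 in Control (SD, n = 8) and was at the floor in 3 of those arrays. At 6 h it read 1554.0 and 1410.1 with Lps, 978.6 and 977.8 with Pam, 893.7 and 877.4 with Cpg and 1186.3 and 1236.0 with Grd, against 20 in the Control array of that time. With Pic it read 176.9 and 150.2 at 6 h, and its highest array was 238.7 at 2 h. The early log2 differences were 3.07 with Lps, 1.98 with Pic, 3.24 with Pam, 2.85 with Cpg and 2.51 with Grd (SE 0.213, limma adjusted p between 1.2e-18 and 2.7e-10). The middle ones were 5.26, 2.16, 4.73, 4.46 and 5.05 (limma adjusted p between 1e-28 and 5.2e-13).

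With Pic both Inhba and Fst had lower 6 h values than with the other ligands, and both were lower at 16 h than at 12 h with all 5. Fst read 87.8 and 65.5 with Lps at that time, 20 and 22.9 with Pic, 68.4 and 69.4 with Pam, 47.2 with Cpg, and 86.1 and 102.9 with Grd. The late difference passed with every ligand but Pic. Over the group means r between Inhba and Fst was 0.79. In Control, Fst read 98.2 at 2 h, where Inhba was also highest, and was at the floor at 6, 12 and 24 h.

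Of the 16 measured activin receptors, inhibitors and Smads, 5 passed in the middle window with Lps, 3 higher and 2 lower, 4 with Pic, 3 with Pam, 4 with Cpg and 3 with Grd. Besides Fst, the rising genes included Fstl1, a secreted follistatin-like glycoprotein, with middle differences of 2.57 ± 0.099 (SE) with Lps and 2.41 ± 0.099 with Cpg (limma adjusted p = 9.8e-30 and 2.8e-28). Its Control mean was 20.2, with all arrays but that at 2 h at the floor. Acvr1, a receptor of this list, passed higher with Pic in the middle window, at 1.01 ± 0.091 (limma adjusted p = 1.9e-14). The Acvr1 difference with Lps in that window was 1.1. The other Acvr1 probe sets gave 0.76 and 0.02 with Pic, and 0.9 and 0.02 with Lps. The one with 0.02 differed by at most 0.04 with any ligand in any window. The 2 genes that fell with Lps were receptors of TGF-beta. Tgfbr1 averaged 827 ± 55.4 in Control (SD, n = 8) and reached its lowest mean of 197.9 with Lps at 4 h, and its middle difference was -1.65 ± 0.059 with Lps, -1.15 ± 0.059 with Pic and -1.03 ± 0.059 with Cpg (limma adjusted p = 2.8e-31, 5.6e-24 and 3.9e-22). Its 2 other probe sets gave -1.44 and -0.99 with Lps.

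Tgfbr2 fell by 1.97 ± 0.088 (SE) with Lps in the middle window (limma adjusted p = 7.5e-27), and the differences were -1.76 with Pam, -1.96 with Cpg and -1.87 with Grd, but its second probe set gave -0.46 with Lps. Bambi, a pseudoreceptor that dampens TGF-beta and activin signalling, passed with Pic, at 1.91 ± 0.048 in the middle window (limma adjusted p = 1.2e-37). It read at most 92.75 as a group mean with Pic at 8 h, against means no higher than 23.85 with the other ligands and 20.7 ± 2.05 in Control (SD, n = 8), and the difference between ligands was not tested. Among the 4 measured ligands of the TGF-beta family 1 passed in the middle window with each of Lps, Pam and Cpg, Bmp1, a procollagen protease named with the family, at 1.24, 1.18 and 1.19 (SE 0.095), while its second probe set gave 0.0 with Lps.

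**Figure D4:**
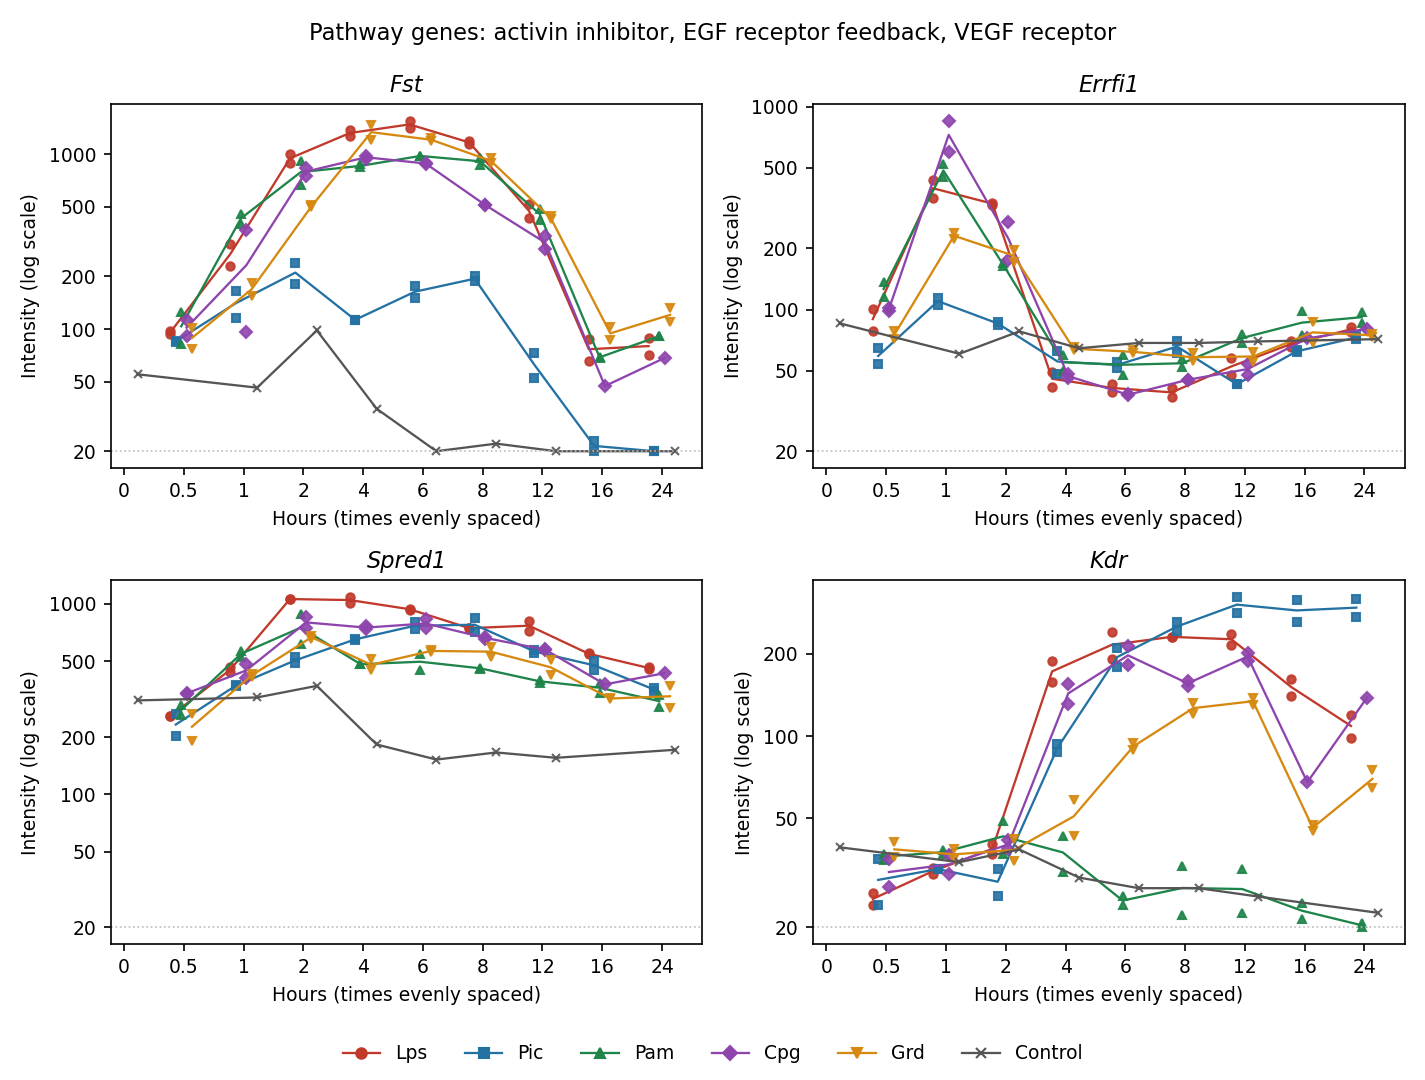
Intensity (log scale) of Fst, Errfi1, Spred1 and Kdr by time (evenly spaced, in hours), with a point for each array, lines through the group means, colours for the ligands and grey crosses for Control. Fst is highest between 2 and 6 h and lowest with Pic, whose 24 h arrays are at the floor, Errfi1 peaks at 1 h with every ligand, Spred1 stays above the Control arrays of the same times from 4 h on, and Kdr is raised late with every ligand but Pam, whose arrays reach at most 48.8.

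Of the EGF family ligand list 2 genes were measured, Tgfa, which never exceeded 26.1, and Nrg4, which never exceeded 62.8 and passed with Pic in the late window at 1.11 ± 0.080 (SE, limma adjusted p = 5.7e-18). Egfr itself never exceeded 34.3 on any array, its largest window difference was 0.40 with Cpg late, and Erbb3 and Erbb4 were listed at the floor on all 96 arrays, while Erbb2 is not analysed here. The adaptors Grb2, Cbl and Shc1, which act downstream of these and other receptors, were above the floor on all 96 arrays. The 8 measured genes of ectodomain shedding, the step that frees Ereg and Hbegf proteins from the membrane, had 0 calls in all 15 windows. Adam17, the main sheddase of both, reached its largest difference at 0.74 ± 0.055 with Grd in the middle window (limma adjusted p = 2.6e-17), below the fold asked for.

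Among 7 measured EGF receptor and feedback genes, at most 3 passed in any window, all higher, and those were the feedback inhibitors Errfi1, Spred1 and Spry1. Errfi1 (Mig6), an inhibitor that binds the EGF receptor kinase, read 356.5 and 437.1 with Lps at 1 h, 105.3 and 114.6 with Pic, 519.9 and 450.2 with Pam, 852.5 and 601.3 with Cpg and 222.7 and 239.3 with Grd, against 60.5 in the Control array of that time. Every ligand array at 1 h thus lay above all Control arrays, of which the highest was 85.4. By 4 h it read between 41.7 and 65.4 with the 5 ligands, against 64.4 in Control at that time. The early window differences were 1.82 with Cpg, 1.68 with Lps, 1.61 with Pam and 1.05 with Grd (SE 0.083, limma adjusted p between 2.3e-25 and 3.5e-15).

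Spred1, an inhibitor of Ras activation, passed in the middle window with all 5 ligands, at 2.06 with Lps, 1.76 with Pic, 1.15 with Pam, 1.76 with Cpg and 1.31 with Grd (SE 0.124, limma adjusted p between 2.2e-21 and 1e-11). Its highest mean was 1061 with Lps at 2 h, against 229 ± 89.9 in Control (SD, n = 8), and its Control arrays lay between 311.4 and 371.4 up to 2 h and between 152.2 and 182.7 from 4 h on. Spry1, another inhibitor of this pathway, was at the floor in all 8 Control arrays and passed with Lps in the early window, at 1.098 ± 0.052 (SE, limma adjusted p = 2.3e-24). It was at the floor from 6 h on with every ligand, with 186.5 and 158.1 at 2 h with Lps and 76.1 and 92.6 with Cpg. Of the 7 measured genes of this list, 3 passed early with Lps, 2 each with Pam and Cpg, 1 with Grd, and 0 of them under Pic. Those with Lps, Pam and Cpg include Spred1, at 1.21, 1.16 and 1.20 against the mean of all 8 Control arrays. The Spred1 Control arrays up to 2 h lay above that mean, so these early sizes depend on the choice of Control arrays.

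In the VEGF list, 8 genes were measured and Kdr, the main signalling receptor for VEGF-A, passed with 4 of the 5 ligands. It averaged 30.9 ± 6.02 in Control (SD, n = 8). With Lps it read 229.9 and 230.9 at 8 h, with Cpg 181.1 and 213.2 at 6 h, with Grd 137.8 and 130.3 at 12 h, and with Pic 281.9 and 322.4 at 12 h and 272.9 and 316.3 at 24 h. With Pam no array exceeded 48.8, and at 24 h the 2 arrays were 20 and 20.7. Middle differences of Kdr were 2.71 for Lps, 2.40 for Pic, 2.39 for Cpg and 1.43 for Grd, and the late one was 3.23 with Pic (SE 0.102, limma adjusted p between 2.6e-33 and 3.7e-18). Kdr did not pass with Pam in any window, and the difference between ligands was not tested. Of the endothelium and epithelium markers, Cdh5, Tek, Krt8 and Krt18 were at the floor on all arrays. Cdh1, the 1 measured gene of that list, never exceeded 50.

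The other VEGF genes mostly stayed within the threshold. Nrp2, a VEGF and semaphorin co-receptor, passed with Pam in the middle window at 1.07 ± 0.080 (SE, limma adjusted p = 4.1e-17). Its highest group mean was 1940 with Pam and between 1500 and 1668 with the other ligands, a difference that was not tested. Vegfc, the lymphatic growth factor, passed with Grd in the late window at 1.01 ± 0.049 (limma adjusted p = 8.5e-25), with a Control at the floor in all 8 arrays. At 24 h it averaged 58.95 with Grd and 44.5 with Lps, and the 1 Cpg array read 48.5. Flt1 never exceeded 44.1.

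The 15 measured genes of the HIF pathway and its targets did not move one way. In the middle window with Lps 1 passed higher and 2 lower. Ndrg1, a stress-responsive gene, was higher by 1.83 ± 0.097 (SE, limma adjusted p = 1.1e-23) and also passed with Pic at 1.38, Cpg at 1.48 and Grd at 1.42, whereas Bnip3, a mitophagy receptor and classical hypoxia target, was lower by 1.40 on the log2 scale and Egln1, the main oxygen-sensing prolyl hydroxylase, lower by 1.08. Bnip3 was also past the rule with Pic, Pam, Cpg and Grd, at -1.01, -1.09, -1.40 and -1.23 (SE 0.074). Vhl, the ubiquitin ligase subunit that removes HIF alpha proteins, was lower early with Lps at -1.14 and with Pam at -1.25 (SE 0.115). Pfkfb3, a glycolytic regulator, passed with Pic late at 1.01 ± 0.104. Its highest group mean was 785 with Pic and 806 with Lps.

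Among 12 other secreted growth factors the calls were all lower than Control. Pdgfc, a platelet-derived growth factor, passed in the middle window with Lps at -1.21, Pam at -1.32, Cpg at -1.26 and Grd at -1.29 (SE 0.107, limma adjusted p between 7.2e-16 and 6.8e-15), from a Control mean of 53.2 ± 15.9 (SD, n = 8). Its lowest group mean was at the floor of 20 with each of these ligands, so the sizes depend on the floor. The second Pdgfc probe set gave -0.99 with each of them in both the middle and the late window. The same value throughout is what arrays at the floor would give, so a larger fall may not have been measurable with it. Fgf13 passed in the late window with all 5 ligands, from -2.13 with Pic to -1.44 with Pam (SE 0.237, or 0.278 for Cpg, limma adjusted p between 2e-11 and 7.3e-06). Its Control arrays ranged from 30.2 to 255.6, the lowest 3 being those at 6, 12 and 24 h, in plate column 12. At 24 h Fgf13 averaged 37.35 with Pam, 37.4 with Cpg and 35.05 with Grd, above the Control value of 30.2 at that time. With Lps and Pic it averaged 20 and 21.4 at 24 h, below that value.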

How the data were processed

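Intensity values of 96 Affymetrix mouse arrays were used as deposited by the authors on a linear scale, normalized with RMA per the submitters' processing notes, whose version and whose floor of 20 are not explained in the sources used here. Of 18858 probe sets, the 4409 never above the floor were dropped, each gene took its probe set with the highest mean, and log2(intensity + 1) was fitted with limma 3.58.1 in R 4.3.3 over all groups, with no further normalization. That gave 10543 features and 50 residual degrees of freedom. A feature passed with a Benjamini-Hochberg adjusted p under 0.05 and a log2 difference of at least 1. Groups came from the sample labels. Members and gene lists were chosen with earlier results of these data known. Named genes were up to 4 per list and window with the largest called difference, plus the 3 most correlated genes per member. Deviations of arrays with equal replicate numbers had a median correlation of 0.008 over 903 pairs of groups, ranging from -0.328 to 0.349. Most of these pairs join different ligands, so pairing within a ligand was not tested separately. The fit was tested on simulated data. Alternatives covered the pseudocount, filter, probe set choice, centring, array weights, Control definition, replicate block and left-out arrays. Figures used matplotlib 3.10.9.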

Additional observations from a re-analysis of the deposited data

Results flagged for a closer look

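In unstimulated cells the Hbegf array at 2 h, at an intensity of 32.0, lay far from the other 7 Control arrays, which were at most 20.7. The second Hbegf probe set had its one Control value above the floor, 21.5, on the same array. The second Vegfa probe set read 86.0 on the Control array at 24 h, where the next highest was 46.9. Each was picked out because its gap to the nearest other array was large against the whole range of the 8 (Dixon's criterion). For normally distributed values that criterion picks out about 1 in 20 groups by chance, a rate not shown to hold where most arrays lie at the floor.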

How the results depend on the processing

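No window difference of a member past the rule changed sign under the alternatives run, although the second Vegfa probe set gave 0.037 for Cpg middle, where the first gave -1.058. With a pseudocount of 16 the pathway genes called numbered 3 for Lps early, 5 for Pam middle, 2 for Pam late, 1 for Grd early and 4 for Grd late, and 1 member was past the rule for Pam early. Against Control arrays of the same times, 2 members were past the rule late with each of Lps, Pic and Cpg. That setting also left out the ligand arrays of times without a Control array, the first sampled time and 16 h. Ereg with Lps late went from 0.667 to 1.001 there, although every Ereg Control array was at the floor, so its Control level had not changed. Hbegf with Pic late went from 0.911 to 1.318. With a linear trend in the Control arrays 2 members were past the rule for Cpg late. The Inhba slope in Control was -0.757 with a pseudocount of 16 and -0.807 after median centring of the arrays. Leaving out 1 array gave slopes between -0.977 and -0.737, against -0.815 with all 8, and -0.772 without the Control array at 6 h. Leaving out 1 array gave 1 to 2 members for Pic late (2 without Pic 16 h replicate 1) and 1 to 2 for Pam early (1 without Pam 2 h replicate 1). With the replicate block the members' counts were the same in 15 of 15 windows, and 7 pathway genes were called for Pic middle, against 8 without it. Chosen after seeing the data were a plate column block for Cpg and Control and the removal of the 3 Control arrays of plate column 12, and neither moved a count by over 1.5 times, but the second ended the Vegfa calls for Lps, Pam and Cpg in the middle window. The floor of 20 limits what low values can show, and the causes of these shifts were not tested.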
